A study of Xenopus laevis with 8 samples.

Results

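The hairy and Enhancer-of-split related genes hes1, hes2, hes4, hes6.1, hes6.2, hes7.1 and hes7.2, the related genes hey1 and hey2, and nrarp were followed through gastrulation in animal cap explants of the frog Xenopus laevis. Members were found in the table by their symbol, and these symbols were picked with earlier results of the data known. This frog is allotetraploid, and many of its genes are kept as a copy on the L and a copy on the S subgenome, called homeologs. The 10 symbols gave 14 members among 51017 gene IDs, 9 of them L copies and 5 S copies. Both homeologs of hes1, hes7.1, hes7.2 and hey1 were measured, the L copy of hes2, hes4, hes6.1, hes6.2 and hey2, and the S copy of nrarp. The other homeologs, among them hes4.S and nrarp.L, were not found by these symbols in the authors' table and were not analysed here. Of the 14 members, 13 passed the filter on low counts, and hey2.L did not. The symbols of hes7.2.S and hey1.L carry a second name in the authors' table, as hes7.2.S_LOC108703525 and hey1.L_LOC108719308.

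Explants of the animal portion of wt blastulae, which per the labels had received no treatment, were left to heal and then cultured. The 4 collection stages were 9, a late blastula, then 10.5, an early gastrula, then 11.5, in mid gastrulation, and last 12.5, a late gastrula. Each stage has a library A and a library B, 8 in all, made from poly-A selected RNA. All groups share the genotype, the untreated state and the isolation of the ectoderm from the rest of the embryo. How many explants or embryos went into a library is not given in the sources used here, nor whether A and B are separate clutches. P-values therefore measure the spread between these libraries only, which may be partly technical.

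Hes and Hey proteins are basic helix-loop-helix repressors with an Orange domain. Most of them recruit Groucho corepressors, which in the frog are named tle. Several are switched on directly when a Notch receptor binds Delta or Jagged on a neighbouring cell, is cleaved, and its intracellular domain joins the DNA-binding protein Rbpj in the nucleus. Nrarp is a small ankyrin-repeat protein that Notch signalling induces and that acts back on the intracellular domain to limit it. In the Xenopus epidermis, Notch signalling limits how many cells become multiciliated cells or ionocytes. Hes genes are also used outside Notch signalling, for instance by the Nodal, FGF and BMP pathways.

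Library totals lay between 33170889 and 45511790 counts, and levels are given in CPM, counts per 1e+06 of the TMM-scaled library total. CPM values are not divided by transcript length, so levels are compared within a gene and never between genes. A single gene held at most 1.14% of the counts of a library, apart from smad4.1.S with 3.05% in the B library of stage 11.5. Levels of marker genes were summed within each of 5 lists, and the sums are not compared between lists. Over stages 9 to 12.5 the summed level of 20 marker genes of surface ectoderm and epidermis was 2074, 6389, 7905 and 12256 CPM in the A libraries and 2038, 5463, 7421 and 9400 CPM in the B libraries. For 17 mesoderm and endoderm genes it was 149, 104, 90.6 and 39.9 CPM in A and 180, 244, 120 and 160 CPM in B, much of it from the vegt homeologs. Of those 17 genes, 1 was at 0 in both libraries of stage 11.5 and none at the other stages. For 13 genes of multiciliated cells it was 70.8, 190.2, 311 and 1380 CPM in A and 111, 176, 410 and 755 CPM in B. For 11 neural genes it lay between 888 and 1019 CPM at stages 9 and 10.5 and between 619.9 and 799 CPM at stages 11.5 and 12.5. Much of this sum was sox3.S, at 586 CPM at stage 10.5 and 334 CPM at stage 12.5. At stage 10.5 against stage 9, edgeR called 7 of the 11 higher and 0 lower by stage, and 9 and 0 with the replicate letter as a block. At stage 12.5 against stage 9 it called 8 higher and 2 lower in both fits. Of all genes, 25% and 31.9% were called higher by stage in these comparisons, and 23.3% and 28.9% lower. For 7 ionocyte genes the sum was 121, 195, 223 and 528 CPM in A and 129, 188, 272 and 343 CPM in B.

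Of the single steps, the one between stage 9 and stage 10.5 held all changes of these genes that edgeR called by stage. The same was true of the whole table. Of all 28490 genes tested, 48.3% were called at that step, and 0% at stage 11.5 against stage 10.5 and at stage 12.5 against stage 11.5. Between stages 9 and 10.5 nrarp.S, hes4.L, hes6.1.L and hes6.2.L rose and hes7.1.L fell. The calls of hes6.2.L against stage 9, where both libraries held 0 counts, support nothing further. By stage 12.5 both hes7.1 homeologs and both hey1 homeologs were lower than at stage 9, and hes1.S and hes7.2.S were higher, as were the 4 genes that rose at the first step. The gene hes2.L did not pass the test by stage in any comparison, and hey2.L was not tested.

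**Figure D1:**
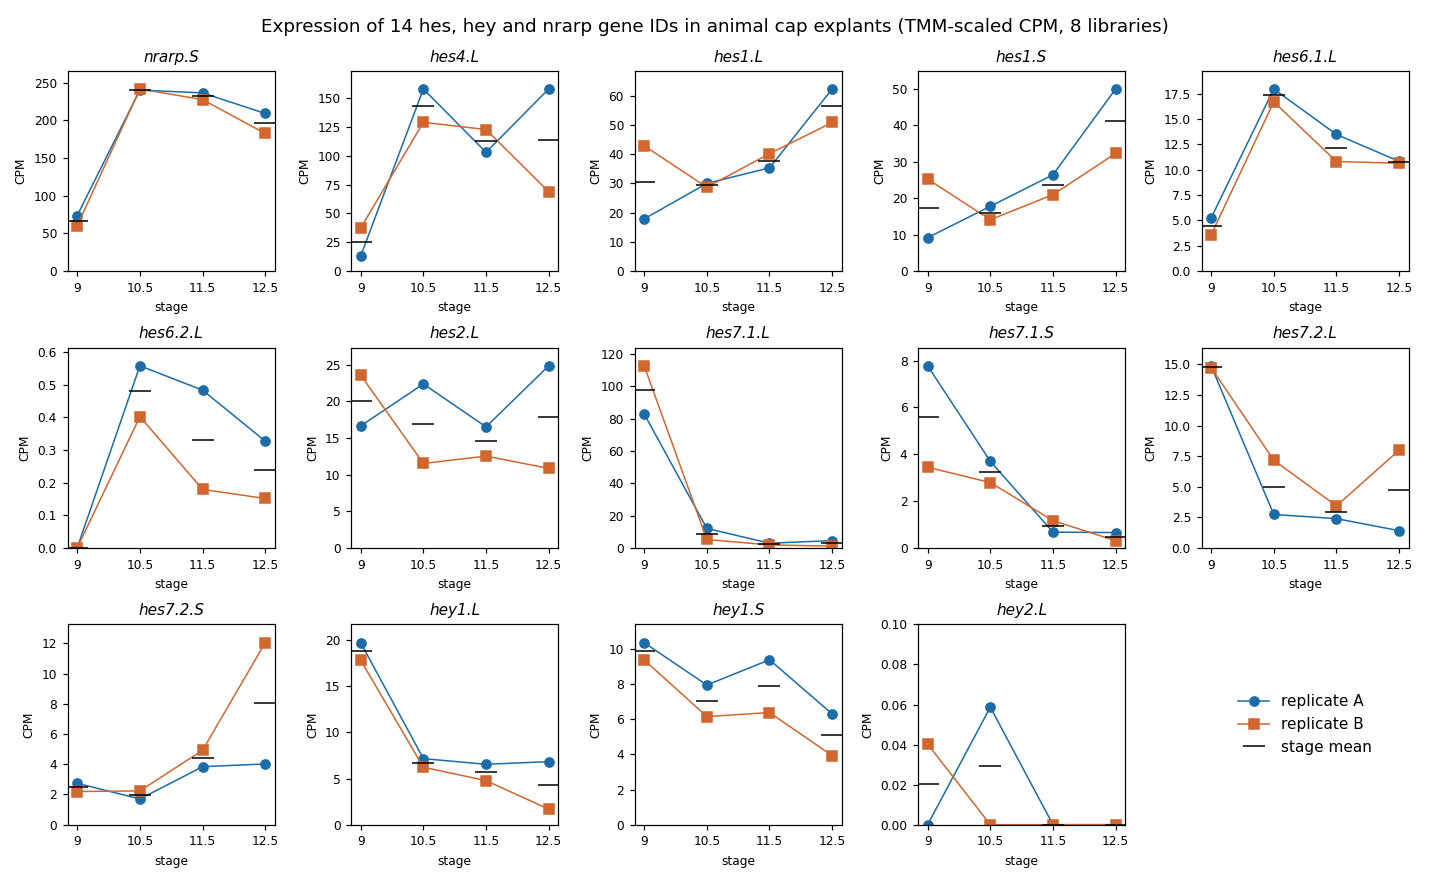
Level of each member (CPM, linear axis that starts at 0) by stage, 1 point per library, with lines that join the A and the B libraries and a dash at the mean of each stage. The gene nrarp.S stands at 60.1 to 73.7 CPM at stage 9 and between 182.6 and 241.6 CPM at the later stages, and hes7.1.L at 83.0 to 113 CPM at stage 9 and at 12.1 CPM or less at every later stage.

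The feedback inhibitor nrarp.S (gene1488) rose 3.60-fold at the first step and lay between 182.6 and 241.6 CPM in all 6 later libraries. In the A libraries it was at 73.7 CPM at stage 9, 240.1 at stage 10.5, 236 at stage 11.5 and 209 at stage 12.5. In the B libraries it was at 60.1, 242, 227 and 183 CPM at the same stages. The stage 9 libraries were the lowest in both letters, and they did not overlap with any later library. The mean was 240.8 ± 1.07 CPM at stage 10.5 and 66.9 ± 9.61 CPM at stage 9 (SD, n = 2 libraries each). The log2 fold change, given here and below ± SE, was 1.85 ± 0.15, with an edgeR adjusted p of 8.5e-05 over all 28490 genes tested. In explants, fewer cells of a type and less RNA per cell cannot be told apart, and this holds for every level given here. At stage 12.5 nrarp.S was at 195.8 ± 18.7 CPM, 0.30 ± 0.14 lower on the log2 scale than at stage 10.5, which did not pass the test (edgeR adjusted p = 0.207). With libraries scaled by their size alone it was 0.60 lower and passed (adjusted p = 0.021), in a fit where the median gene was 0.30 lower.

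The gene hes4.L (gene19742), whose RefSeq synonym is hairy2 and which in Xenopus is expressed at the border of the neural plate, rose 5.69-fold at the first step. Its level in the A libraries was 13.1 CPM at stage 9, 158 at stage 10.5, 103 at stage 11.5 and 158 at stage 12.5. Its level in the B libraries was 37.4, 129, 123 and 68.9 CPM. All 6 later libraries lay above both stage 9 libraries. The A and B libraries differed at both ends of the series: at stage 9 the B library was at 2.86 times the A library, and at stage 12.5 it was at 0.436 times. The summed markers of multiciliated cells were also lower in B at stage 12.5, at 755 CPM against 1380 CPM in A. So were those of ionocytes, at 343 against 528 CPM, and of surface ectoderm and epidermis, at 9400 against 12256 CPM. The neural sum was higher in B, at 704 against 649 CPM, as was the mesoderm and endoderm sum, at 160 against 39.9 CPM. The part of these markers in the hes4.L values was not tested. The log2 fold change at stage 10.5 against stage 9 was 2.51 ± 0.54 (edgeR adjusted p = 0.0070), with 143.6 ± 20.4 CPM at stage 10.5 and 25.2 ± 17.2 CPM at stage 9. Without the stage 9 B library it was 3.46, and without its A counterpart 1.95, past the threshold in both fits. At stage 12.5 hes4.L was at 113.5 ± 63.1 CPM, a log2 fold change of 2.17 ± 0.53 against stage 9 (edgeR adjusted p = 0.0092) that became 1.43 and missed the threshold without the stage 12.5 A library (adjusted p = 0.063). Without the stage 9 B library it was 3.08.

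The hes1 homeologs, named hairy1 in the frog, did not move together in the A and B libraries at the first step. The level of hes1.L (gene15077) in the A libraries was 17.8 CPM at stage 9, 30.0 at stage 10.5, 35.3 at stage 11.5 and 62.2 at stage 12.5. In the B libraries it was 42.8, 28.6, 40.2 and 50.8 CPM. In A each stage was above the one before it, whereas in B the stage 9 library was above those of stages 10.5 and 11.5. The S copy, hes1.S (gene9548), was at 9.15, 17.7, 26.4 and 49.9 CPM in A and at 25.2, 14.1, 20.9 and 32.3 CPM in B. At stage 9 the B library was at 2.40 times the A library for hes1.L and at 2.75 times for hes1.S.

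The log2 fold change of hes1.L at stage 10.5 against stage 9 was 0.75 within A and −0.58 within B, and −0.05 ± 0.36 in the fit (edgeR adjusted p = 0.922). For hes1.S it was 0.95 within A, −0.84 within B and −0.11 ± 0.45 in the fit (adjusted p = 0.859). Without the stage 9 B library these log2 fold changes were 0.71 for hes1.L, which then passed the threshold as a rise (adjusted p = 0.046), and 0.79 for hes1.S, which did not. Without the stage 9 A library they were −0.54 and −0.66, and neither passed. From stage 10.5 on, both copies had positive fold changes in both letters. The mean of hes1.S was 41.1 ± 12.5 CPM at stage 12.5 and 15.9 ± 2.601 CPM at stage 10.5, a log2 fold change of 1.37 ± 0.45 that missed the threshold by stage alone (edgeR adjusted p = 0.089) and passed it with the replicate letter as a block (adjusted p = 0.047). The mean of hes1.L was 56.5 ± 8.10 CPM at stage 12.5 and 29.3 ± 0.945 CPM at stage 10.5, a log2 fold change of 0.95 ± 0.36 (adjusted p = 0.127, with the block 0.057). Against stage 9, hes1.S was called higher at stage 12.5 (log2 fold change 1.26 ± 0.45, edgeR adjusted p = 0.043), and hes1.L was not (0.90 ± 0.36, adjusted p = 0.062) unless the block was used (adjusted p = 0.026) or the stage 9 B library left out (1.62, adjusted p = 0.0013). At stage 12.5 both copies stood above their stage 9 level in both letters. The call of hes1.S held in 1 of the 8 fits that each left out 1 library, the one without the stage 9 B library, where the log2 fold change was 2.13. It was 0.67 without the stage 9 A library, and the largest adjusted p was 0.211.

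The hes6 genes encode proteins that in the mouse counteract Hes1 and favour neuronal differentiation. In RefSeq's Xenopus_laevis_v10.1 annotation hes6.1.L and hes6.2.L lie side by side, with 0 genes between them. The level of hes6.1.L (gene3902) in the A libraries was 5.22 CPM at stage 9, 17.95 at stage 10.5, 13.5 at stage 11.5 and 10.8 at stage 12.5, and in the B libraries 3.56, 16.7, 10.8 and 10.6 CPM. Both letters were lowest at stage 9 and highest at stage 10.5, and no later library overlapped with stage 9. It rose to 17.3 ± 0.899 CPM at stage 10.5, against 4.39 ± 1.17 CPM at stage 9, a log2 fold change of 1.98 ± 0.26 (edgeR adjusted p = 6.9e-04). At stage 12.5 it was at 10.7 ± 0.130 CPM, 0.69 ± 0.25 below stage 10.5 on the log2 scale. That difference missed the threshold by stage alone (edgeR adjusted p = 0.1101) and passed it with the block (adjusted p = 0.035) and with libraries scaled by their size alone (0.99 lower, adjusted p = 0.039).

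Its neighbour hes6.2.L (gene9162) was detected at a low level and only after stage 9. Both stage 9 libraries held 0 counts, which allows up to 3 counts or 0.0627 CPM in A and 0.0604 CPM in B. The A libraries held 19 counts at stage 10.5, 18 at stage 11.5 and 10 at stage 12.5, and the B libraries held 16, 6 and 6. Against the limit of 3 counts per library, hes6.2.L was at least 7.79-fold higher at stage 10.5 than at stage 9, and at least 3.88-fold higher at stage 12.5 than at stage 9. These limits cover counting error only. It passed the filter on low counts only through libraries of the later stages, so its calls against stage 9 are counted with the others below and support nothing further.

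The gene hes2.L (gene6917), a family member that in Xenopus acts in the retina, had no shared course in the A and B libraries. It was at 16.7 CPM at stage 9, 22.4 at stage 10.5, 16.5 at stage 11.5 and 24.9 at stage 12.5 in A, and at 23.6, 11.5, 12.5 and 10.9 CPM in B. At stage 9 the B library was the higher, and at the 3 later stages the A library was. The log2 fold change at stage 10.5 against stage 9 was 0.43 within A and −1.03 within B, and −0.25 ± 0.45 in the fit (edgeR adjusted p = 0.683).

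The hes7 genes, whose mouse relative Hes7 drives the segmentation clock of the presomitic mesoderm, lie in pairs in the frog. In the same annotation hes7.1 and hes7.2 are separated by 3 genes on the L and by 8 genes on the S subgenome. RefSeq lists XHR1 as a synonym of hes7.1.L, which is known in Xenopus from the midbrain-hindbrain boundary. Among the 13 tested members, hes7.1.L had the largest fitted fall against stage 9, both at stage 10.5 and at stage 12.5.

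The level of hes7.1.L (gene48729) in the A libraries was 83.0 CPM at stage 9, 12.1 at stage 10.5, 2.87 at stage 11.5 and 4.51 at stage 12.5. In the B libraries it was 113, 5.201, 1.82 and 1.08 CPM. The stage 9 libraries stood above all later ones, and the stage 10.5 libraries above those of stages 11.5 and 12.5. It fell to 8.63 ± 4.85 CPM at stage 10.5, against 97.9 ± 21.1 CPM at stage 9, a log2 fold change of −3.51 ± 0.66 (edgeR adjusted p = 0.0040). Without the stage 10.5 A library this was −4.25, and without the stage 10.5 B library −3.01. At stage 12.5 it was 35.4-fold lower than at stage 9 (log2 fold change −5.15 ± 0.73, edgeR adjusted p = 6.2e-04), with −6.51 without the stage 12.5 A library and −4.44 without the stage 12.5 B library. After stage 10.5 the fitted steps were smaller. The log2 fold change at stage 11.5 against stage 10.5 was −1.87 ± 0.65 (edgeR adjusted p = 0.583, at a step where no gene of the table was called), and that at stage 12.5 against stage 11.5 was 0.23 ± 0.66. In the authors' deposited table for stage 11.5 against stage 10.5, hes7.1.L is the 1 member past the threshold, with a log2 fold change of −1.03 and an adjusted p of 0.030. Its log2 fold change at stage 12.5 against stage 10.5 was −1.64 ± 0.65, short of the threshold by stage alone (edgeR adjusted p = 0.139) and past it with the block (adjusted p = 0.033). Leaving out 1 library moved it between −2.99 without the stage 12.5 A library and −0.91 without the stage 10.5 A library, past the threshold in none of the 8 fits.

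For the S copy the first step did not pass the test, with log2 fold changes of −1.06 within A and −0.30 within B. Stage 12.5 was called lower than stage 10.5. The level of hes7.1.S (gene17989) was 7.77 CPM at stage 9, 3.70 at stage 10.5, 0.671 at stage 11.5 and 0.653 at stage 12.5 in A, and 3.44, 2.79, 1.16 and 0.302 CPM in B. All 4 libraries of stages 11.5 and 12.5 lay below all 4 earlier ones. Its log2 fold change at the first step was −0.79 ± 0.55 and missed the threshold (edgeR adjusted p = 0.270). At stage 12.5 it fell to 0.478 ± 0.248 CPM, against 3.24 ± 0.642 CPM at stage 10.5, a log2 fold change of −2.77 ± 0.60 (edgeR adjusted p = 0.026). Leaving out any 1 of the 4 libraries compared ended that call, with log2 fold changes from −3.41 without the stage 12.5 A library to −2.30 without the stage 12.5 B library, and a largest adjusted p of 0.104. Against stage 9 hes7.1.S was 11.8-fold lower at stage 12.5 (log2 fold change −3.56 ± 0.62, edgeR adjusted p = 0.0018), with −4.21 without the stage 12.5 A library and −2.89 without the stage 9 A library.

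Of the hes7.2 copies, the S copy rose late, and the fold changes of the L copy against stage 9 were negative. The level of hes7.2.L (gene12321) was 14.9 CPM at stage 9, 2.73 at stage 10.5, 2.39 at stage 11.5 and 1.40 at stage 12.5 in A, and 14.7, 7.16, 3.43 and 7.99 CPM in B. Both stage 9 libraries were above all 6 later ones, and at stage 12.5 the B library was at 5.68 times the A library. The level of hes7.2.S (gene43959) was 2.74, 1.70, 3.84 and 4.02 CPM in A and 2.19, 2.24, 4.92 and 12.0 CPM in B. Its libraries of stages 11.5 and 12.5 lay above all 4 earlier ones, and at stage 12.5 the B library was at 2.996 times the A library. The summed mesoderm and endoderm markers were also higher in B than in A at stage 12.5, at 160 against 39.9 CPM, and at stage 10.5, at 244 against 104 CPM. Most of this difference came from vegt. At stage 12.5 vegt.S was at 82.5 CPM in B and 11.9 in A, and vegt.L at 31.9 and 6.37 CPM. The other genes of the list were divided at stage 12.5. Several were also higher in B, among them wnt8a.L, at 11.6 CPM in B and 1.37 in A, and t.S, at 9.65 and 1.24 CPM. Several were higher in A, chrd.L among them, at 3.89 CPM in A and 1.96 in B. The part of these markers in the hes7.2 values was not tested.

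For hes7.2.L the log2 fold change at stage 10.5 against stage 9 was −1.58 ± 0.75, short of the threshold by stage alone (edgeR adjusted p = 0.122) and past it with the block (−1.81, adjusted p = 0.015). It was −2.43 without the stage 10.5 B library and −1.06 without the stage 10.5 A library. At stage 12.5 against stage 9 it was −1.65 ± 0.76 by stage alone (adjusted p = 0.094) and −2.01 with the block (adjusted p = 0.0083). Without the stage 12.5 B library it was −3.40 and passed by stage (adjusted p = 0.0078), and without the stage 12.5 A library it was −0.90. The S copy rose to 8.03 ± 5.67 CPM at stage 12.5, against 1.97 ± 0.378 CPM at stage 10.5, a log2 fold change of 2.03 ± 0.53 (edgeR adjusted p = 0.043). The S copy stood far higher in the B than in the A library of stage 12.5, and both late comparisons moved with that library. Without the stage 12.5 B library the log2 fold change was 1.03, and without the stage 12.5 A library 2.61. The fit without the stage 12.5 A library was the single one of the 8 leaving out a library that kept the call, and the largest adjusted p was 0.197. Against stage 9 the log2 fold change was 1.70 ± 0.52 (edgeR adjusted p = 0.023). It was 0.70 without the stage 12.5 B library, 2.27 without the stage 12.5 A library, and it missed the threshold without either stage 9 library, with 1.84 without A and 1.51 without B.

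The balance of the homeologs was tested on the log2 scale, as L CPM over S CPM after adding 1 CPM to both. Lengths of the copies were not used, so the change of this ratio is read and not its level. Of the 4 pairs with both copies tested, 3 shifted among the stages (limma with trend), while 43.7% of all 4813 homeolog pairs of the table did. The mean hes7.2 ratio was 2.19 ± 0.151 at stage 9, 0.90 ± 0.615 at stage 10.5, −0.47 ± 0.0672 at stage 11.5 and −0.80 ± 0.370 at stage 12.5 (SD, n = 2 libraries each; limma adjusted p = 0.0015). At stage 12.5 the S copy held 74.1% (A) and 60.1% (B) of the CPM of both hes7.2 copies, against 15.5% (A) and 12.96% (B) at stage 9. This shift had the same direction in A and B at every step.

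The hes7.1 ratio was 3.97 ± 1.00 at stage 9, 1.09 ± 0.541 at stage 10.5, 0.80 ± 0.587 at stage 11.5 and 1.21 ± 0.748 at stage 12.5 (limma adjusted p = 0.012). Its drop lay in the first step, and the call was lost without the stage 9 B library (adjusted p = 0.071). The S copy held 8.57%, 23.5%, 18.9% and 12.7% of the CPM of both hes7.1 copies at the 4 stages in A. In B it held 2.96%, 34.9%, 39% and 21.8%. At stages 11.5 and 12.5 hes7.1.S was at 1.16 CPM or less, near the 1 CPM added, which compresses the late hes7.1 ratios. The hey1 ratio was 0.86 ± 0.00630, −0.06 ± 0.105, −0.41 ± 0.0752 and −0.39 ± 0.689 at the 4 stages (adjusted p = 0.048). That call was lost when 0.5 CPM was added in place of 1 CPM (adjusted p = 0.064), and when either library of stage 9, 10.5 or 11.5 was left out (adjusted p = 0.185, 0.084 and 0.103 without the A libraries, 0.180, 0.083 and 0.094 without the B libraries). The hes1 ratio did not pass the test, with 0.82 ± 0.105, 0.85 ± 0.178, 0.66 ± 0.355 and 0.48 ± 0.230 at the 4 stages (adjusted p = 0.510).

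**Figure D2:**
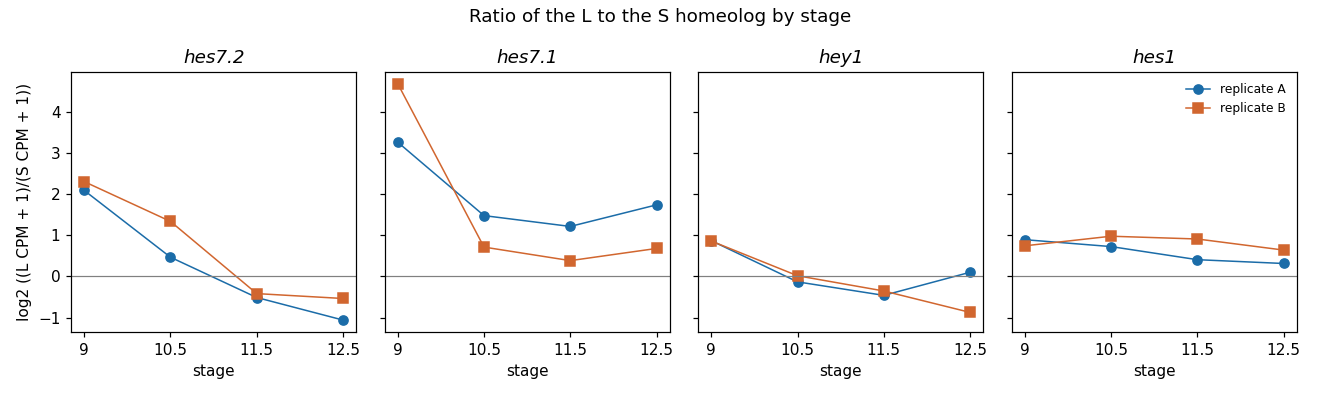
Log2 ratio of L CPM + 1 over S CPM + 1 for the 4 member pairs by stage, with 1 point per library and the libraries of a letter joined. The hes7.2 lines cross 0 in both letters between stages 10.5 and 11.5, the hes7.1 lines drop between stages 9 and 10.5, and the hes1 lines stay between 0.31 and 0.97.

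Hey proteins are close relatives of the Hes proteins that act downstream of Notch and BMP signalling in the heart and vessels of vertebrates. The level of hey1.L (gene50258) was 19.7 CPM at stage 9, 7.16 at stage 10.5, 6.55 at stage 11.5 and 6.83 at stage 12.5 in A, and 17.8, 6.23, 4.77 and 1.69 CPM in B. Both stage 9 libraries stood above all 6 later ones. The level of hey1.S (gene3367) was 10.4, 7.95, 9.39 and 6.31 CPM in A and 9.38, 6.16, 6.38 and 3.93 CPM in B. Its range was narrower, and the stage 9 and stage 11.5 libraries overlapped.

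At stage 10.5 hey1.L was at 6.69 ± 0.656 CPM, against 18.8 ± 1.35 CPM at stage 9, a log2 fold change of −1.49 ± 0.56 (edgeR adjusted p = 0.060; with the block −1.49, adjusted p = 0.013). By stage 12.5 hey1.L had fallen 4.43-fold against stage 9 (log2 fold change −2.15 ± 0.57, edgeR adjusted p = 0.013), with −3.49 without the stage 12.5 A library and −1.46 without the stage 12.5 B library. Over the same interval hey1.S fell 1.93-fold (−0.95 ± 0.33, edgeR adjusted p = 0.038). That call was lost without either stage 9 library, either stage 10.5 library or stage 12.5 replicate B, with log2 fold changes between −0.65 without the stage 12.5 B library and −1.06 without the stage 9 B library. The gene hey2.L (gene17003) had 2 counts in stage 10.5 replicate A, 2 counts in stage 9 replicate B and 0 counts in the other 6 libraries, and no change could be tested at this depth.

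The number of members called was set against the share of all genes called in the same fit. At stage 10.5 against stage 9, 5 of the 13 tested members passed an adjusted p of 0.05, 4 higher and 1 lower, where 48.3% of all 28490 genes did, 25% higher and 23.3% lower. By stage the share of members called thus lay below that of all genes, a difference that was not tested. The CPM values of the 2 stages did not overlap for 8 members, 4 higher and 4 lower, where they did not for 76.3% of all genes, 40.5% higher and 35.8% lower. The median log2 fold change was −0.25 over the members and 0.11 over all genes, and hes6.2.L at its lower bound leaves the members' median as it is. One of the 5 calls is hes6.2.L, with 0 counts at stage 9. The other calls, nrarp.S, hes4.L, hes6.1.L and hes7.1.L, had the same direction in A and B. Each of them was kept in all 8 fits that left out 1 library. With the block 7 members were called, 4 higher and 3 lower, where 58.4% of all genes were, 30.3% higher and 28.1% lower. In the authors' deposited table for this step 7 members are past the threshold, among 44.3% of the genes with an adjusted p. There the share of members lay above that of all genes, so the order depends on the fit.

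No member was called by edgeR at stage 11.5 against stage 10.5, where 0% of all genes were, and 2 members and 2131 genes had an unadjusted p under 0.05. The last step, stage 12.5 against stage 11.5, had no member called either, where again 0% of all genes were, and 0 members and 4246 genes had an unadjusted p under 0.05. With the block no member was called at either step, where 0.0737% and 4.58% of all genes were. DESeq2 by stage called 0 members at both steps. The authors' deposited table for the last step has 0 members past the threshold, among 3.51% of the genes, and that for the middle step has 1, among 1.02%.

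Across both of these steps together, at stage 12.5 against stage 10.5, 2 of 13 members were called, hes7.2.S higher and hes7.1.S lower, where 14.1% of all genes were, 7.13% higher and 6.93% lower, a share close to that of the members. With the block 5 were called, 2 higher and 3 lower, where 26.6% of all genes were, 13.2% higher and 13.4% lower. DESeq2 by stage called 5 members. Of all genes called by stage, 50.7% were higher, against 23.6% when libraries were scaled by their size alone, which moved the median log2 fold change of all genes to −0.30. Over the whole series, at stage 12.5 against stage 9, 10 of 13 members were called, 6 higher and 4 lower, where 60.8% of all genes were, 31.9% higher and 28.9% lower. The share of members called was above that of all genes, a difference that was not tested. The median log2 fold change over that interval was 0.90 over the members, again with or without the bound of hes6.2.L, and 0.13 over all genes. With the block 12 were called, 7 higher and 5 lower, where 69.1% of all genes were, 36.3% higher and 32.8% lower. For any difference among the 4 stages 8 members were called, where 52.5% of all genes were, and 10 with the block, with hes7.2.L and hey1.S added, where 64.5% were.

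**Figure D3:**
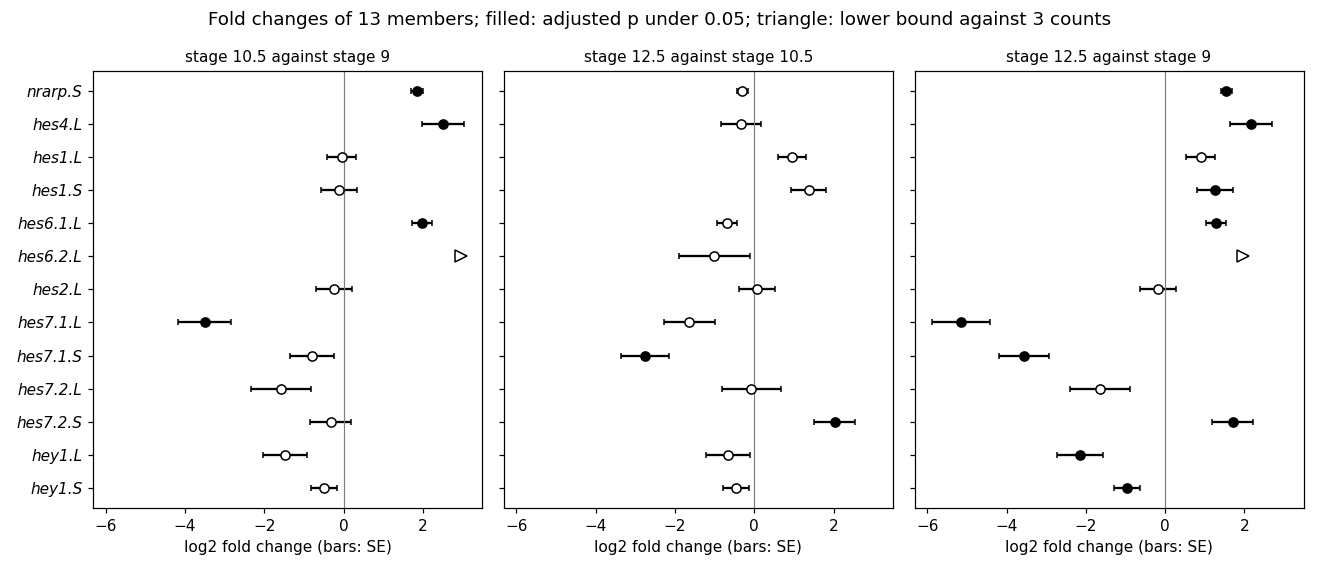
Log2 fold changes (later over earlier stage) of the 13 tested members in 3 comparisons, with bars of 1 SE, filled points for an adjusted p under 0.05, and a triangle for the lower bound of hes6.2.L against 3 counts. At stage 10.5 against stage 9 the filled points are nrarp.S, hes4.L, hes6.1.L and hes7.1.L, and at stage 12.5 against stage 10.5 they are hes7.2.S and hes7.1.S.

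The genes with the course most like that of 4 members were found by the root mean square difference of the centred log2 CPM over the 8 libraries, among 15290 genes with a mean of at least 5 CPM. All libraries entered this measure, so shared depth and letter effects enter it too. Closest to nrarp.S were Xelaev18007686m at 0.108, bcorl1.S at 0.131 and lmna.L, the gene of a nuclear lamin, at 0.147, where the median gene was at 0.988. Closest to hes4.L were nedd9.S, encoding a focal adhesion scaffold, at 0.300, the amino acid transporter gene slc7a5.L at 0.303 and rnf135.L at 0.355, where the median gene was at 1.33. All 3 were, like hes4.L, lowest in the stage 9 library of each letter, which the choice by smallest difference from hes4.L favours. Closest to hes1.L were LOC108715139 at 0.190, slc41a3.L at 0.192 and lsm3.S at 0.218, where the median gene was at 0.790. Closest to hes7.1.L were tdgf1.1.L at 0.431, gpr75.S at 0.493 and LOC108714569 at 0.561, where the median gene was at 2.23. The gene tdgf1.1.L encodes a Nodal coreceptor of the EGF-CFC family. Its level was 152.4 ± 8.77 CPM at stage 9, 16.9 ± 4.62 at stage 10.5, 7.31 ± 2.95 at stage 11.5 and 5.31 ± 3.304 at stage 12.5.

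**Figure D4:**
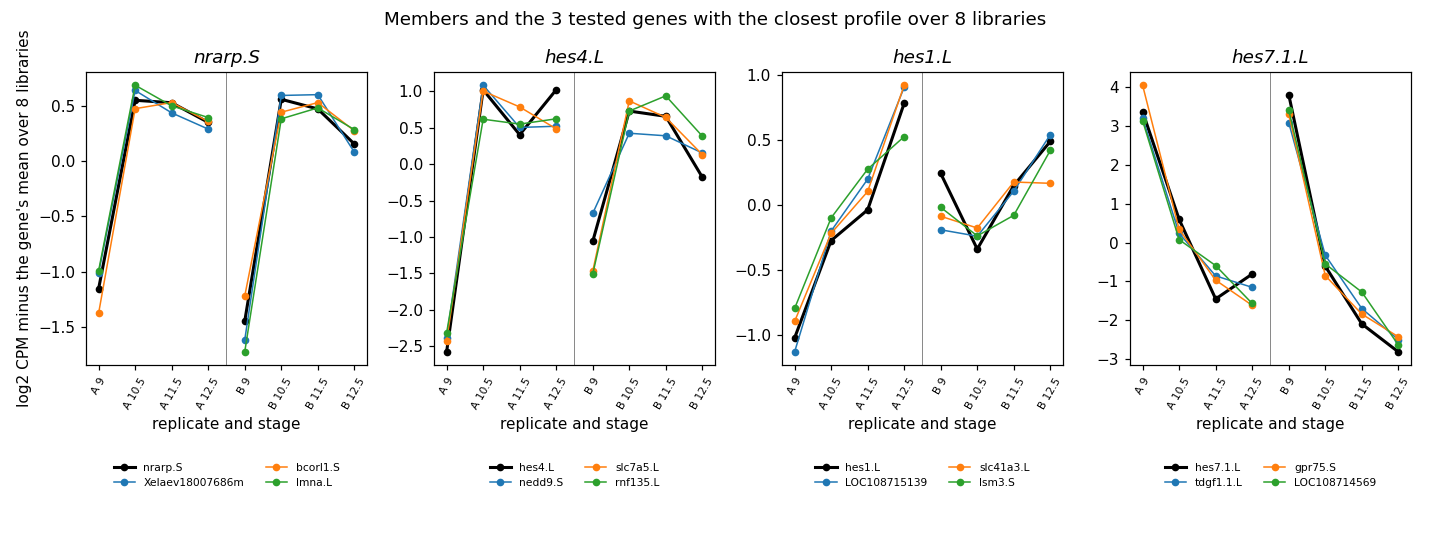
Centred log2 CPM in the 8 libraries of nrarp.S, hes4.L, hes1.L and hes7.1.L, each with the 3 genes whose course over the libraries differs least from it. The root mean square differences lie between 0.108 for Xelaev18007686m from nrarp.S and 0.561 for LOC108714569 from hes7.1.L.

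The rest of the Notch pathway was described by lists of ligands, receptors and core components, modulators, other genes with the Orange domain, Groucho corepressors, and proneural and Id genes. At stage 10.5 against stage 9, 48.3% of all genes were called by stage, 25% higher and 23.3% lower, and 58.4% with the block, with a median log2 fold change of 0.11 by stage. In that step 6 of 9 Notch ligands rose and 1 fell, with or without the block, and their median log2 fold change was 2.55. The ligand gene dlc.S rose to 3.18 ± 0.194 CPM at stage 10.5, against 0.0310 ± 0.0153 CPM, or at most 2 counts per library, at stage 9. It passed the filter on low counts only through libraries of the later stages, so its call is counted among the 6 and supports nothing further. The ligand jag1.S fell to 3.13 ± 0.0218 CPM at stage 10.5, against 11.2 ± 3.11 CPM at stage 9 (log2 fold change −1.84 ± 0.33, edgeR adjusted p = 0.0033). Its homeolog jag1.L went the other way and is among the 6 that rose (log2 fold change 2.90 ± 0.32, edgeR adjusted p = 3.2e-04). Among 24 genes of receptors and core components 2 rose and 9 fell, a share near that of all genes, with a median of −0.58. With the block 4 rose and 13 fell. The receptor notch2.S rose to 3.94 ± 0.852 CPM, against 0.244 ± 0.168 CPM, or at most 18 counts per library, at stage 9. As with dlc.S, the libraries of later stages were needed for it to pass the filter on low counts. Its call is therefore counted among the 2 and supports nothing further. The protease gene adam17.L, whose product takes part in receptor cleavage, fell to 4.96 ± 1.45 CPM, against 30.4 ± 3.68 CPM at stage 9. Both copies of rbpj, the DNA-binding partner of the Notch intracellular domain, fell at this step, with log2 fold changes of −1.22 ± 0.26 for rbpj.L and −0.97 ± 0.29 for rbpj.S (edgeR adjusted p = 0.0073 and 0.026). The rbpj genes and jag1.L were picked from the lists after their values were seen.

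At the first step 48.3% of all genes were called by stage and 58.4% with the block. The numbers called in the lists that follow lay near these shares. Of 23 tested modulators, 3 rose and 9 fell at the first step, and 5 rose and 10 fell with the block, with a median log2 fold change of −0.13 by stage. The ubiquitin ligase gene dtx4.L rose to 18.9 ± 4.25 CPM at stage 10.5, against 1.40 ± 0.153 CPM at stage 9, and dtx2.S of the same family fell to 4.85 ± 1.56 CPM, against 26.7 ± 0.0918 CPM. Of 19 other genes with the Orange domain 5 rose and 3 fell by stage, whereas 5 rose and 7 fell with the block, and their median was −0.67 by stage. Among them was hes5.10_hes3.1.S at 63.7 ± 20.8 CPM at stage 10.5 and 3.60 ± 1.02 CPM at stage 9. The Groucho list of 6 genes held aes.L and aes.S besides the tle genes. Of these 6, 3 fell, aes.L among them, and none rose in either fit. The number called was close to the share of all genes, and the median was −0.47. The Groucho gene tle4.S fell to 22.4 ± 1.30 CPM, against 185.6 ± 16.8 CPM at stage 9 (log2 fold change −3.05 ± 0.19, edgeR adjusted p = 4.4e-05). Of 12 proneural and Id genes, 4 rose and 1 fell by stage and 4 rose and 3 fell with the block, with a median of 0.27. The gene id3.S, encoding a repressor of helix-loop-helix proteins, rose to 698 ± 99.3 CPM, against 33.9 ± 15.2 CPM at stage 9. The proneural gene neurog2.S fell to 1.94 ± 0.288 CPM, against 6.86 ± 0.674 CPM. Its homeolog neurog2.L did not pass the test at this step (log2 fold change −0.05 ± 0.50, edgeR adjusted p = 0.942).

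Other genes with the Orange domain, such as the hes5 relatives, were called in 1 direction by stage between stages 10.5 and 12.5. At stage 12.5 against stage 10.5, 7 of 19 tested rose and none fell, and with the block 13 rose and 2 fell, where 14.1% and 26.6% of all genes were called. The gene hes5.4.S_hes8.S had the largest fitted rise of the 7 called by stage, to 2.21 ± 0.566 CPM at stage 12.5, against 0.138 ± 0.0534 CPM at stage 10.5 (log2 fold change 3.98 ± 0.87, edgeR adjusted p = 0.026). At stage 10.5 it held at most 6 counts per library. It passed the filter on low counts only through the libraries of stage 12.5, so its call is counted among the 7 and supports nothing further. Of 9 ligands 3 rose, and 3 rose and 1 fell with the block, led by dlc.L at 67.6 ± 4.24 CPM at stage 12.5 and 18.9 ± 4.47 CPM at stage 10.5. Of 23 modulators 3 rose and 1 fell, and 4 rose and 4 fell with the block, with dtx4.L at 47.0 ± 1.03 CPM at stage 12.5, against 18.9 ± 4.25 CPM at stage 10.5, and itch.S lower. Of 24 receptor and core genes 2 fell, psen2.L among them, and 1 rose and 4 fell with the block. Of the 6 genes of the Groucho list tle1.L alone fell, to 56.4 ± 3.63 CPM, against 91.0 ± 4.09 CPM at stage 10.5. Of 12 proneural and Id genes 0 were called by stage, 3 had an unadjusted p under 0.05, and 3 fell with the block. The summed multiciliated markers were at 1380 CPM in A and 755 CPM in B at stage 12.5, against 190 and 176 CPM at stage 10.5, and their part in these changes was not tested.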

How the data were processed

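Poly-A selected, non-stranded libraries from explants were sequenced as read pairs, per the labels' protocols. The authors deposited raw counts per gene and library. They also deposited, for each pair of successive stages, log2 fold changes with p-values, a mean normalized signal, and scores (a standard error and a test statistic). FastQC 0.11.5, STAR 2.6.0b-1, featureCounts 1.6.3 and DESeq2 1.22.1 are named in the submitters' processing notes. The genome build is not given in the sources used here, so no coordinates are given. Without strand, reads of overlapping genes cannot be told apart, and reads shared by homeologs or by neighbouring hes7 copies may be split in ways that are not stated.

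The count analysis used edgeR 4.0.16 in R 4.3.3, with filterByExpr by stage, TMM scaling (factors 0.818 to 1.12), and the quasi-likelihood F test with stage as the only term over all 8 libraries (4 residual degrees of freedom), adjusted by Benjamini and Hochberg over 28490 genes. The threshold for a call was an adjusted p of 0.05. Homeolog ratios were tested with limma 3.58.1. Standard errors were derived from the F statistic. The floor of 3 counts was 0.0604 to 0.0980 CPM. Tests were tried on simulated data first, with less spread between libraries than here and no letter effect. Error rates in these data cannot be read from that trial. Libraries of 1 letter deviated from their stage means together at all 6 pairs of stages (Pearson r across genes from 0.374 to 0.597), so the letters pair the libraries, and the fit with the letter as a block is given where it changed a call. A chi-square comparison gave 35.9 to 70.7 per degree of freedom between the libraries of a stage, so none is a repeat deposit of the other. Alternatives were other scalings, no filter, DESeq2 1.42.0, the block, only the libraries compared, another pseudocount, and leaving out each library.

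The members and gene lists were chosen with earlier results of these data known. Members are all named. The rbpj, vegt and aes genes, jag1.L, neurog2.L, wnt8a.L and t.S were picked from the lists after their values were seen. The other list genes named are the called genes with the largest fitted rise or fall of their list. This was taken at stage 10.5 against stage 9 and at stage 12.5 against stage 10.5. The most like genes are the 3 with the smallest difference from hes4.L, hes1.L and hes7.1.L. For nrarp the S copy was used, the only nrarp copy found by symbol, and this was settled after values were seen.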

Additional observations from a re-analysis of the deposited data

How the results depend on the processing

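The first step kept its 5 calls under every alternative run, with 5 to 7 members called. The hes6.2.L call among them, with 0 counts at stage 9, supports nothing further. At stage 11.5 against stage 10.5 DESeq2 with the replicate block called 1 member, hes7.1.S, where the other fits called 0. At stage 12.5 against stage 10.5, 2 members were called, and 5 were called without the filter on low counts, by DESeq2 by stage and by edgeR with the replicate block, and 6 by DESeq2 with the replicate block. Leaving out 1 library gave 0 to 3, with 0 without stage 10.5 A, stage 10.5 B or stage 12.5 B. At stage 12.5 against stage 9, 10 were called, and 6 from the 4 libraries of those stages, where hes6.2.L did not pass the filter. For any difference among the stages 8 were called, and leaving out 1 library gave 4 (without stage 10.5 A) to 9. The 3 homeolog calls became 1 to 3 (1 without stage 9 B). Over all genes, stage 12.5 against stage 10.5 gave 4006 calls by stage, 7569 with the block, and 162 without stage 10.5 B.

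Of 644 recomputed fold changes of members, 544 kept side and direction, 48 passed the threshold newly, 34 no longer passed and 18 changed sign. The sign changes concern fold changes that were not called by stage, and 1 of them, hes1.L at the first step without stage 9 B, then passed the threshold. For hes1.L at the first step the log2 fold change was 0.0052 with the block and 0.033 with DESeq2 and the block, and leaving out 1 library gave −0.54 to 0.71. The same gave −0.66 to 0.79 for hes1.S and −0.82 to 0.16 for hes2.L. At stage 12.5 against stage 10.5 hes2.L was at −0.24 with library size alone and at −0.65 to 0.63 when 1 library was left out. There hes4.L ranged from −1.06 to 0.14, hes7.2.L from −1.81 to 0.74 and hey1.L from −1.99 to 0.032. At stage 12.5 against stage 9 hes2.L ranged from −0.90 to 0.30, and at stage 12.5 against stage 11.5 hes7.1.L from −1.12 to 0.94. With library size alone hes1.S at stage 12.5 against stage 9 and hes7.2.S in both late comparisons missed the threshold, while hey1.L at the first step (−1.51, adjusted p = 0.044) and nrarp.S and hes6.1.L at stage 12.5 against stage 10.5 newly passed it. Leaving out either stage 12.5 library made hes7.2.L and hey1.L pass at the first step, leaving out either stage 9 library made both hes1 copies pass at stage 12.5 against stage 10.5, and there hey1.L passed without stage 12.5 A. The cause of these changes was not tested. The replicate block changed no call of a member by edgeR other than those given with the results. Depth limits hes6.2.L, with 0 counts at stage 9, and hey2.L.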
